A study of Mus musculus with 7 samples.

Results

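Lmo7 and 9 genes of the cell junctions of heart muscle were read in the embryonic mouse heart, in left ventricle taken at embryonic day 12.5. The 9 genes are Dsp, Pkp2, Jup, Dsg2, Dsc2, Cdh2, Ctnna1, Ctnna3 and Vcl, and with Lmo7 they make 10 of the 23337 gene symbols in the count table. Lmo7 was chosen for its rise between the groups of this study, so its difference is given as a description, with no test. The 9 junction genes were chosen by name, with earlier results of these data known, to ask whether the rise of Lmo7 is shared by the junction. All 10 passed the filter on low counts.

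Of the 7 libraries, 2 are labelled mutant and come from embryos with the genotype Tbx5flox/flox, and 5 are controls with Tbx5+/+. Embryos of both groups also carry Gt(ROSA)26Sortm1(cre/ERT2)Tyj, that is CreERT2, a tamoxifen-activated recombinase made from the Rosa26 locus, which is active in most cell types, so the design does not confine deletion to heart muscle. All mothers received tamoxifen by intraperitoneal injection 1 day before the left ventricle was dissected for poly(A) RNA sequencing. The labels do not say whether litters were shared, so p-values measure only the spread between these samples, which may be technical. Library totals ran from 20268208 to 24440806 counts. Levels are given as CPM, the read count of a gene scaled to an equal total in every library. Xist, which marks an inactive X chromosome, was at 0.689 and 1.09 CPM in control replicates 1 and 3 and at 311 to 509 CPM in the other 5 libraries, among them both labelled mutant. Tbx5, the gene with loxP-flanked alleles, stood at 103.8 ± 14.1 CPM in the libraries labelled mutant (SD, n = 2), no lower than the 76.9 ± 13.7 CPM of the controls (SD, n = 5). Because reads from undeleted exons are counted too, this total does not check the deletion, and the genotypes rest on the labels.

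Heart muscle cells are joined end to end at the intercalated disc. There adherens junctions anchor the contractile filaments through cadherins, catenins and vinculin, and desmosomes anchor intermediate filaments through desmosomal cadherins, plakoglobin, plakophilin and desmoplakin. In mammalian heart the proteins of both junctions mix in a composite structure, the area composita, and inherited defects of the desmosome cause arrhythmogenic cardiomyopathy. Read counts do not show whether these structures had formed in the embryonic ventricles sampled here. LMO7 is a LIM-domain protein found at cell junctions and in the nucleus, described as a partner of afadin and alpha-actinin at the adherens junction and of emerin, a protein of the nuclear envelope.

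The start regions of Lmo7, Dsp and Jup are shown because the deleted gene encodes a T-box factor, a family that binds the letters AGGTGT. RefSeq start windows of build GRCm38.p6, 250 bases before to 50 after the start, were at hand for 5 of the 10 genes, Lmo7, Dsp, Jup, Ctnna3 and Vcl, in 8 windows. Capitals mark AGGTGT or its complement ACACCT. The 2 annotated starts of Lmo7 lie at chr14:101729678-101729977 and chr14:101840373-101840672 on the plus strand, that of Dsp at chr13:38151044-38151343 on the plus strand, and that of Jup at chr11:100397741-100398040 on the minus strand. All are given in the direction of the gene.
Lmo7 first start: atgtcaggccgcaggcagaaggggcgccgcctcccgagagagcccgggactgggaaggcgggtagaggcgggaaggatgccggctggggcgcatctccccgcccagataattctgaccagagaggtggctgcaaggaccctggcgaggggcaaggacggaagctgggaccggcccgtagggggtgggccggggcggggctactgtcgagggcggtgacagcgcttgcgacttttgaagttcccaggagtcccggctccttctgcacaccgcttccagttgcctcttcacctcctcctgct
Lmo7 second start: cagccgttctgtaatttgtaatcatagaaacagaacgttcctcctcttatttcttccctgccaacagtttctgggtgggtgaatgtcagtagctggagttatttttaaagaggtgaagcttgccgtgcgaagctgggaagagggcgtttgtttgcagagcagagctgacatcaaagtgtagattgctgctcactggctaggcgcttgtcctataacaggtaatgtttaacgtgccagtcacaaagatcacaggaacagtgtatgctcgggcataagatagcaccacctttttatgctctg
Dsp start: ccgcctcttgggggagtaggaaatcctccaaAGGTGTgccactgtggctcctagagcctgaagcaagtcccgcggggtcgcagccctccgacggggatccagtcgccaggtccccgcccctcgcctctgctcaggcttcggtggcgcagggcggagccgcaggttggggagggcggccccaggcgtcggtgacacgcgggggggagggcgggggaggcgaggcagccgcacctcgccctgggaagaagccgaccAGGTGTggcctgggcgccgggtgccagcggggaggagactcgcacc
Jup start: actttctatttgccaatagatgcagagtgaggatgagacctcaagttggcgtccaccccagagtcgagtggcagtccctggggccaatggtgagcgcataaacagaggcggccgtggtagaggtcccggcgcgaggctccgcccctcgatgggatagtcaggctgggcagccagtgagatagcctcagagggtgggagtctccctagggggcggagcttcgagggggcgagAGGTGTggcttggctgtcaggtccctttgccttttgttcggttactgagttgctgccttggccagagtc
Neither Lmo7 window held the letters on either strand. The Dsp window held 2 matches, 1 beginning 219 bases before the start and 1 just past the start, and the Jup window held 1, beginning 19 bases before the start. Ctnna3 had a match in 1 of its 3 windows and Vcl had none. A match was held by 13.7% of all 32851 windows. The letters were chosen with these sequences in view, and a match is a description, not a measured binding site.

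Lmo7 lies on chromosome 14 at 101729957 to 101934710 of the GRCm38 assembly, the build the submitters name as mm10, on the plus strand. Its level was 511 and 561.5 CPM in mutant replicates 1 and 2, against 254, 266, 275, 309 and 282 CPM in control replicates 1 to 5. Both libraries labelled mutant were higher than every control, and the gap between the groups was wider than the range within either. The means were 536 ± 35.8 CPM in the libraries labelled mutant (SD, n = 2) and 277 ± 20.7 CPM in the controls (SD, n = 5), a 1.93-fold difference. On the log2 scale this was 0.95 (standard error, SE, 0.09), and it lay between 0.89 and 1.02 with any 1 library left out. Lmo7 was chosen as a gene of this contrast, so these values describe it and support nothing further.

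**Figure D1:**
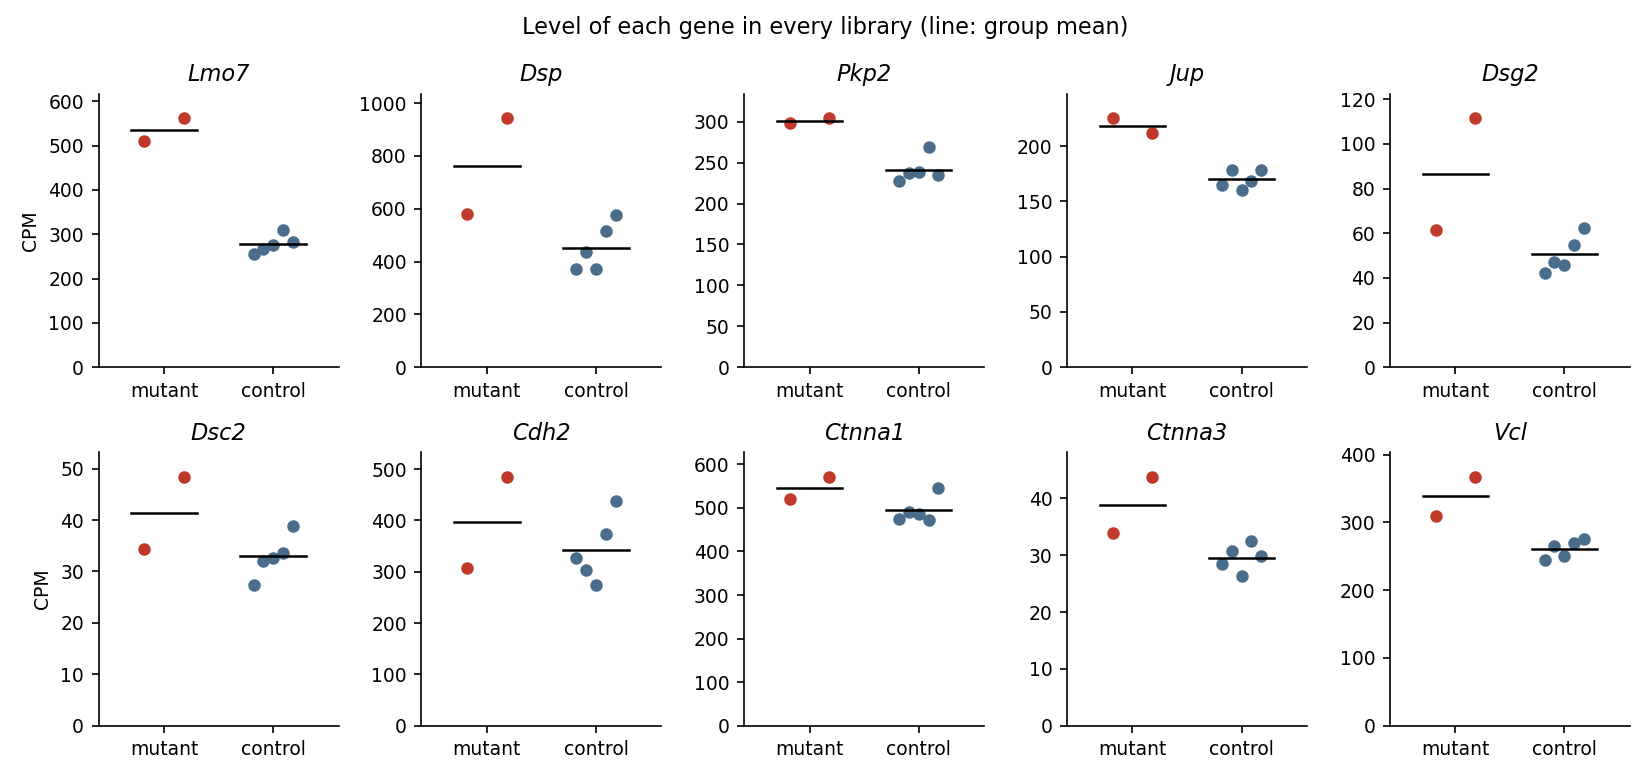
Level of each gene in CPM (vertical axes, each starting at 0) in the 2 libraries labelled mutant and the 5 control libraries; points are libraries and lines group means. Lmo7 has a wide empty space between the groups, with 511 and 561.5 CPM against 254 to 309 CPM, while the groups overlap in Dsg2, Dsc2, Cdh2 and Ctnna1.

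The 9 junction genes had smaller log2 fold changes than Lmo7, in the same direction, but mutant replicate 2 taken alone stood at 2.21 times the control mean for Dsg2 and 2.08 times for Dsp, against 2.02 times for Lmo7. Their log2 fold changes ran from 0.14 for Ctnna1 and 0.21 for Cdh2 to 0.75 for Dsp and 0.78 for Dsg2, with the other five between 0.32 and 0.39. With p-values of edgeR's quasi-likelihood test adjusted by Benjamini-Hochberg over all 14691 genes tested, none of the 9 junction genes passed 0.05. Of all genes 1.36% passed, 0.463% being higher in the libraries labelled mutant and 0.899% lower. At an unadjusted p under 0.05, which 17.6% of all genes reached, 6 of the 9 were higher, against 8.09% of all genes higher. DESeq2 called 5 of the 9 higher at an adjusted p of 0.05, Dsp, Pkp2, Jup, Dsg2 and Vcl, where it called 2.34% of all genes higher, and limma-voom called none, where it called 0.334% higher. All 9 had a positive log2 fold change, as did 48.6% of all genes tested, but scaled to cardiomyocyte markers those of Cdh2 and Ctnna1 were -0.05 and -0.10. Their median was 0.36, against -0.01 over all genes tested. Both libraries labelled mutant lay above every control for 5 of the 9, against 9.73% of all genes. Each of the 9 fold changes was smaller than that of Lmo7, by 0.18 (Dsg2) to 0.81 (Ctnna1) on the log2 scale, but without mutant replicate 1 those of Dsg2 (1.14) and Dsp (1.06) were above that of Lmo7 (1.02). Since the members were chosen in view of this contrast, these shares are a description.

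**Figure D2:**
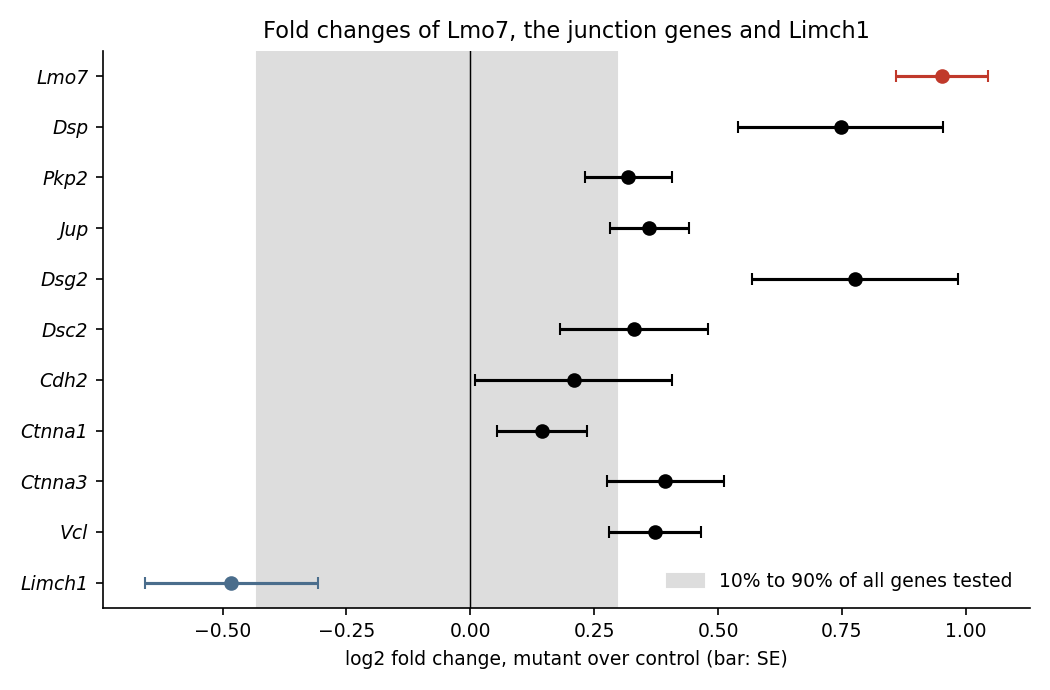
Log2 fold change of Lmo7, the 9 junction genes and Limch1 in the libraries labelled mutant over the controls (horizontal axis), with bars of 1 SE; the grey band spans the middle of all genes tested, from -0.43 to 0.30. Lmo7 stands at 0.95, Dsg2 and Dsp at 0.78 and 0.75 with wider bars, and Limch1 at -0.48.

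Of the desmosomal plaque genes, Dsp encodes desmoplakin, which ties the desmosome to intermediate filaments, and lies on chromosome 13 at 38151294 to 38198577. It was at 579 and 942 CPM in mutant replicates 1 and 2, against 370, 436, 370, 514 and 576 CPM in control replicates 1 to 5. Mutant replicate 1 was barely above the highest control and mutant replicate 2 far above it, so most of the difference came from 1 library. The log2 fold change was 0.75 (SE 0.21), with an adjusted p of 0.105 in that edgeR test, and was 0.37 with mutant replicate 1 alone against the controls and 1.06 with mutant replicate 2 alone.

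Pkp2 encodes plakophilin 2, an armadillo-repeat protein that clusters desmosomal components, and lies on chromosome 16 at 16213318 to 16272712. It was at 298 and 304 CPM in the libraries labelled mutant, against 227, 237, 239, 269.8 and 235 CPM in control replicates 1 to 5. The 2 libraries labelled mutant were close to each other and above every control. This gave a log2 fold change of 0.32 (SE 0.09) and an adjusted p of 0.102 by the same test.

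Jup, on chromosome 11 at 100368958 to 100397763, encodes plakoglobin, a relative of beta-catenin that belongs to both desmosomes and adherens junctions. It was at 225 and 212 CPM in the libraries labelled mutant, against 165, 178, 161, 168 and 178 CPM in control replicates 1 to 5. Jup was the only one of the 9 in which mutant replicate 1 was the higher of the 2. Its log2 fold change of 0.36 (SE 0.08) had the lowest adjusted p of the 9, 0.0567 by the edgeR quasi-likelihood test. It was called without control replicate 5, at 0.0453, where 0.808% of all genes were called higher.

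The 2 desmosomal cadherins cross the membrane and bind those of the neighbouring cell, and both lie on chromosome 18. Dsg2, which encodes desmoglein 2 and lies at 20558074 to 20604521, was at 61.5 and 111 CPM in mutant replicates 1 and 2, against 42.3, 47.2, 45.8, 54.8 and 62.4 CPM in control replicates 1 to 5. Mutant replicate 1 fell inside the control range, just under control replicate 5, and mutant replicate 2 was 1.81 times mutant replicate 1. Its log2 fold change was 0.78 (SE 0.21) with an adjusted p of 0.102, and it was 0.29 with mutant replicate 1 alone and 1.14 with mutant replicate 2 alone (edgeR quasi-likelihood adjusted p of 0.703 and 0.0219). Dsp and Dsg2 were the 2 junction genes called without mutant replicate 1, Dsp at an adjusted p of 0.0498, where 1% of all genes were called higher.

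Dsc2, which encodes desmocollin 2 and lies at 20030633 to 20059554, was at 34.3 and 48.4 CPM in the libraries labelled mutant, against 27.4, 32.0, 32.6, 33.7 and 38.9 CPM in the controls. The groups overlapped. Its log2 fold change was 0.33 (SE 0.15; adjusted p 0.285, edgeR quasi-likelihood) and 0.07 without mutant replicate 2.

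Of the adherens junction genes, Cdh2 and Ctnna1 had the smallest log2 fold changes of the 9. Cdh2 encodes N-cadherin, the classical cadherin of heart muscle, and lies on chromosome 18 at 16588877 to 16809246. It was at 308 and 485 CPM in mutant replicates 1 and 2, against 327, 303, 273, 374 and 438 CPM in control replicates 1 to 5. Mutant replicate 1 was below 3 of the 5 controls and mutant replicate 2 above all. The log2 fold change was 0.21 (SE 0.20; adjusted p 0.626, edgeR quasi-likelihood), and its sign turned to -0.15 without mutant replicate 2. Ctnna1 encodes alpha-E-catenin, which links cadherin complexes to actin, and lies on chromosome 18 at 35118859 to 35254779. It was at 522 and 571 CPM in the libraries labelled mutant, against 476, 490, 486, 473 and 546 CPM in the controls. These groups overlapped through control replicate 5, and the log2 fold change was 0.14 (SE 0.09; adjusted p 0.439, edgeR quasi-likelihood).

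Ctnna3 encodes alpha-T-catenin, the alpha-catenin of heart and testis that also binds plakophilin 2, and lies on chromosome 10 at 63430098 to 65003667. It was at 33.9 and 43.8 CPM in the libraries labelled mutant, against 28.4, 30.8, 26.3, 32.5 and 29.9 CPM in the controls. Both were above every control. Ctnna3 had a log2 fold change of 0.39 (SE 0.12; adjusted p 0.125, edgeR quasi-likelihood), which was 0.21 without mutant replicate 2. Vcl encodes vinculin, an actin-binding protein of adherens junctions and costameres, and lies on chromosome 14 at 20929398 to 21033676. It was at 309 and 367 CPM in the libraries labelled mutant, against 244, 265, 251, 270.0 and 276 CPM in the controls. These groups did not overlap, and the log2 fold change was 0.37 (SE 0.09; adjusted p 0.0809, edgeR quasi-likelihood). Exons of Ap3m1 on the other strand overlap 39.7% of the exon bases of Vcl, and without strand information reads there cannot be told apart. Ap3m1 itself was at 121 ± 18.3 CPM in the libraries labelled mutant (SD, n = 2) and 118 ± 18.1 CPM in the controls (SD, n = 5).

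The libraries differed in how much they carried of these differences. Mutant replicate 2 was above every control for all 9 junction genes and mutant replicate 1 for 5 of them. The share of all genes was computed only for both libraries together, at 9.73%, so the counts for a single library have no background beside them. Among the controls, replicate 5 was the highest for 7 of the 9 and replicate 4 for the other two, Pkp2 and Ctnna3. Control replicates 1 and 3, the 2 without Xist, were the lowest for 4 genes each. In the 5 libraries with Xist the log2 fold change of Lmo7 was 0.91 and the median of the 9 junction genes 0.33, with none of the 9 called, where 0.117% of all genes were called higher. The spread over the controls, as SD over mean, ran from 4.69% for Jup and 5.05% for Vcl to 18.9% for Cdh2 and 19.96% for Dsp, with 7.47% for Lmo7. Dsp, Cdh2 and Dsg2, the most variable among the controls, were also those in which the 2 libraries labelled mutant differed most, by 1.63, 1.57 and 1.81 times. In Lmo7 mutant replicate 2 was 1.1 times mutant replicate 1.

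Lmo7 was also set against the 9 junction genes within each library, which restates the fold changes above on another scale. Lmo7 was chosen for its rise, so a larger difference than that of the junction is a description. No share of all genes stands beside these values. The log2 CPM of Lmo7 minus the mean log2 CPM of the 9 junction genes was 1.56 and 1.32 in mutant replicates 1 and 2, against 0.89, 0.84, 0.99, 0.96 and 0.73 in control replicates 1 to 5. Both values in the libraries labelled mutant were above all 5 control values, and the means differed by 0.56. The mean log2 CPM of the 9 genes was 7.44 and 7.81 in the libraries labelled mutant, against 7.10 to 7.41 in the controls, a difference of means of 0.39. Mutant replicate 1 thus lay close to control replicate 5 in the junction mean but far from it in Lmo7.

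The ventricle holds several cell types, and in a bulk sample fewer cells of a type and less RNA per cell cannot be told apart. The cardiomyocyte markers of the labelled tissue were abundant in every library. None of the 12 markers was called, where 1.36% of all genes were called. Of the 12, 9 were positive, as were 48.6% of all genes. Their median log2 fold change was 0.27, against -0.008 over all genes tested. At an unadjusted p under 0.05 by the edgeR quasi-likelihood test, 6 were higher and 1 lower, against 8.09% of all genes higher. Their summed level was 45860 to 49480 CPM in the libraries labelled mutant and 40470 to 46040 CPM in the controls, ranges that overlapped. Their mean log2 CPM did not overlap, at 10.866 and 10.979 in the libraries labelled mutant and 10.559 to 10.745 in the controls. Against the mean log2 CPM of these 12 markers, Lmo7 stood at -1.87 and -1.85 in the libraries labelled mutant and at -2.67 to -2.47 in the controls, groups that did not overlap. The mean of the 9 junction genes stood at -3.43 and -3.17 in the libraries labelled mutant and at -3.55 to -3.29 in the controls, groups that did overlap. With the libraries scaled to these markers, a choice made after seeing the data, the log2 fold change of Lmo7 was 0.71 and the median of the 9 junction genes 0.12, while the median of all genes was -0.255.

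**Figure D3:**
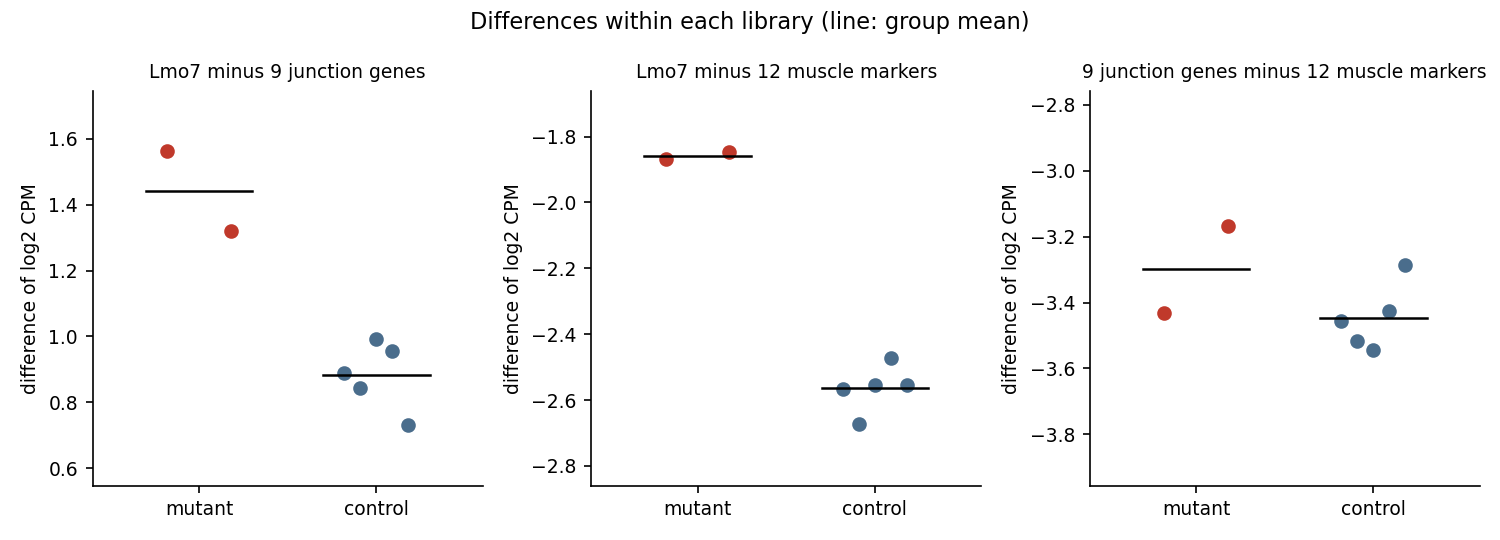
Differences of log2 CPM within each library (vertical axes, of equal span) for Lmo7 against the mean of the 9 junction genes, Lmo7 against the mean of 12 cardiomyocyte markers, and the 9 junction genes against the same markers. Points are libraries and lines group means; the groups separate in both panels with Lmo7 (1.56 and 1.32 against 0.73 to 0.99 in the first) and overlap in the last.

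Some markers of other cells were lower in the libraries labelled mutant. Over all genes 0.899% were called lower and 48.6% had a positive log2 fold change. All 8 mesenchyme markers had a negative log2 fold change and 7 were called lower, with summed levels of 1188 to 1191 CPM in the libraries labelled mutant and 2062 to 3533 CPM in the controls. Of 6 epicardial markers, Krt19 was called lower, with sums of 234 to 323 CPM in the libraries labelled mutant and 320 to 461 CPM in the controls, ranges that overlapped. Of 6 macrophage markers, C1qa and Lyz2 were called lower, with sums of 86.3 to 122 CPM in the libraries labelled mutant and 133 to 189 CPM in the controls. The sums of 8 endothelial and endocardial markers overlapped, at 617 to 904 CPM in the libraries labelled mutant and 710.1 to 941 CPM in the controls, and so did those of 6 erythroid markers, at 5484 to 5775 CPM in the libraries labelled mutant and 4185 to 8932 CPM in the controls. The erythroid markers Hba-a1 and Hba-a2 had identical counts in every library, so the erythroid sums are not over 6 separate measures. Epithelia also make desmosomes. Of 9 epithelial markers, 6 were under 1 CPM in every library, Epcam and Krt5 among them, and the sum was 34.96 to 36.4 CPM in the libraries labelled mutant and 29.8 to 42.6 CPM in the controls. The 6 neural markers summed to 10.9 to 11.46 CPM in the libraries labelled mutant and 10.5 to 15.6 CPM in the controls. No marker of these lists was at 0 in every library, and the part of these cells in the results was not tested.

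Levels can be compared between genes only per length. In RPKM, the CPM divided by the exon length in kilobases, Ctnna1 was the most abundant in the controls at 132 ± 8.01 (SD, n = 5), followed by Pkp2 at 82.8 ± 5.64 and Cdh2 at 69.2 ± 13.1. The ranges over the controls set Ctnna1 apart, while those of Pkp2 and Cdh2 overlapped. Jup at 52.8 ± 2.48, Vcl at 49.6 ± 2.50, Dsp at 47.2 ± 9.43 and Lmo7 at 43.9 ± 3.28 followed, each overlapping its neighbours in this order. Jup and Dsp also overlapped Cdh2. The exon length used for Vcl includes the 39.7% of its bases that exons of Ap3m1 overlap. Ctnna3 at 7.86 ± 0.62, Dsc2 at 7.11 ± 0.89 and Dsg2 at 6.11 ± 0.97 were the lowest and also overlapped. In the libraries labelled mutant Lmo7 stood at 84.9 ± 5.67 (SD, n = 2), with Ctnna1 at 146 ± 9.40 and Pkp2 at 103 ± 1.47 above it and Cdh2 at 79.99 ± 25.2 and Dsp at 79.3 ± 26.7 close to it. The 2 desmosomal cadherins were thus far below the plaque genes they bind in both groups.

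**Figure D4:**
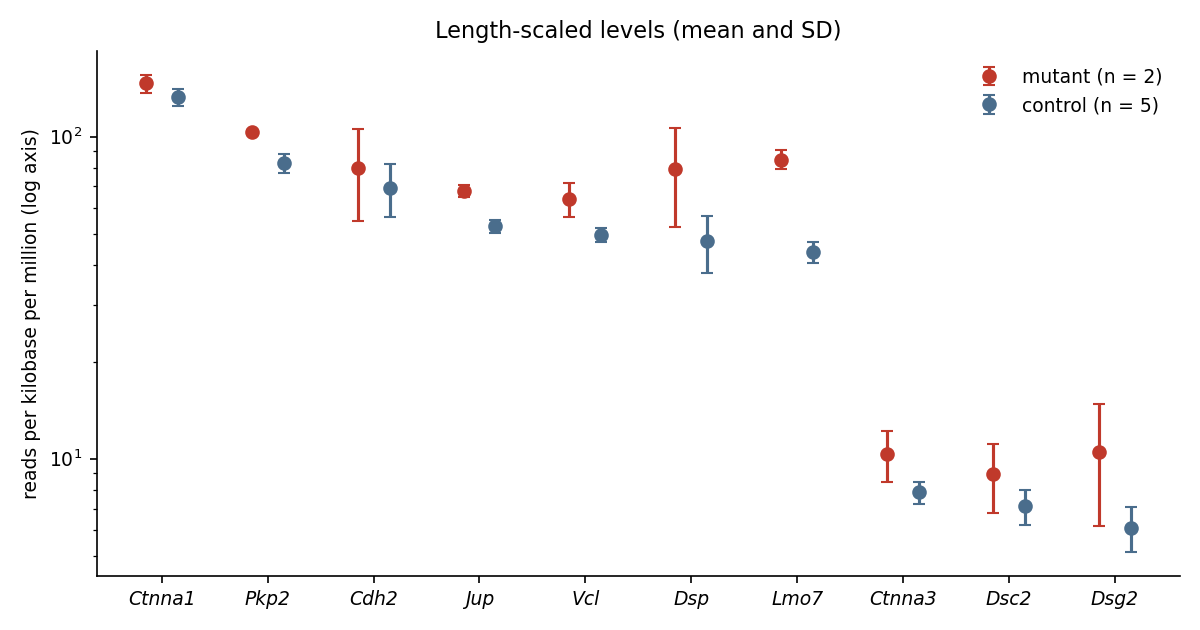
Level per exon length in RPKM (log axis) of the 10 genes in the libraries labelled mutant and the controls, as mean and SD, ordered by the control mean. Ctnna1 is highest at 146 in the libraries labelled mutant and 132 in the controls, and Ctnna3, Dsc2 and Dsg2 form a separate low group.

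The authors' deposited table of significant genes lists 668 genes, 273 higher and 395 lower, and holds 4 of the 10, Lmo7, Dsp, Dsg2 and Jup. In the authors' deposited table the log fold changes are 0.95 for Lmo7, 0.74 for Dsp, 0.77 for Dsg2 and 0.36 for Jup, and the false discovery rates are 0.00722 for Dsp, 0.00194 for Dsg2 and 0.0349 for Jup. The number of genes behind the authors' deposited table is not given. The edgeR likelihood ratio test, run after seeing the data, called 4 of the 9 junction genes higher, Dsp, Jup, Dsg2 and Vcl, where it called 2.22% of all genes higher.

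In 6 further lists of junction, costamere and LIM-domain genes 2 of 81 tested genes were called, where 1.36% of all genes were called. Of 13 other desmosome genes 5 were tested and none was called, with 2 positive log2 fold changes and a median of -0.79. The 3 negative genes were at low levels over the libraries. Pkp1 was at most at 0.47 CPM, Evpl at 1.14 to 2.75 CPM and Ppl, whose value is the median, at 3.37 to 11.6 CPM. The epithelial genes Dsg1a, Dsg1b, Dsg1c, Dsg3, Dsg4, Dsc1, Dsc3 and Pkp3 did not pass the filter on low counts, and each was under 0.5 CPM in every library. Pkp4, a plakophilin relative, was at 196 ± 34.6 CPM in the libraries labelled mutant (SD, n = 2) and 151 ± 14.2 CPM in the controls (SD, n = 5), with an adjusted p of 0.142 by the edgeR quasi-likelihood test. Perp, a membrane protein of desmosomes, was at 114 ± 9.88 CPM in the libraries labelled mutant and 80.2 ± 12.1 CPM in the controls, with an adjusted p of 0.0946 by the same test. Both genes were above every control in both libraries labelled mutant, a position held by 9.73% of all genes.

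Of 18 other adherens junction genes 16 were tested, and Ctnna2, the alpha-catenin of neural tissue, was called lower, as were 0.899% of all genes. It was at 1.09 and 1.31 CPM in the libraries labelled mutant, against 3.40, 3.18, 4.68, 2.18 and 3.58 CPM in control replicates 1 to 5, with a log2 fold change of -1.50 (SE 0.31; adjusted p 0.0486, edgeR quasi-likelihood). The call was lost without control replicate 1, 2, 3 or 5 or either mutant replicate, at adjusted p of 0.0559 to 0.267. The list median was 0.12, close to the log2 fold changes of its 2 genes with the highest CPM, 0.10 (SE 0.08) for Ctnnb1, which encodes beta-catenin, and 0.14 (SE 0.09) for Ctnnd1, which encodes the delta-catenin of cadherin complexes.

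Of 19 other genes of the intercalated disc none was called, where 1.36% of all genes were called, and the median was 0.29. Of the 19, 15 were positive, as were 48.6% of all genes. At an unadjusted p under 0.05 by the edgeR quasi-likelihood test, 9 were higher and 1 lower, against 8.09% of all genes higher. Both libraries labelled mutant lay above every control for 6 and below every control for 1, against 9.73% and 10.4% of all genes. Des, which encodes desmin, the intermediate filament held by desmosomes, was at 944 ± 5.49 CPM in the libraries labelled mutant (SD, n = 2) and 772 ± 102 CPM in the controls (SD, n = 5), with an adjusted p of 0.262 by the edgeR quasi-likelihood test. Sorbs2, an adaptor protein of the disc and Z-line, was at 684 ± 98.4 CPM in the libraries labelled mutant and 561 ± 97.3 CPM in the controls (adjusted p 0.389, edgeR quasi-likelihood).

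Of 15 costamere genes, which tie the sarcomere to the outer membrane through integrins, Tln2 was called higher, as were 0.463% of all genes. The list median was 0.11, against -0.008 over all genes tested. Tln2 encodes talin 2, the talin of mature muscle, and was at 227.5 and 254 CPM in the libraries labelled mutant, against 143.5, 160.2, 146, 180.5 and 171 CPM in the controls. The groups did not overlap, and the log2 fold change was 0.59 (SE 0.10; adjusted p 0.0265, edgeR quasi-likelihood). The call was lost when control replicate 1 (adjusted p 0.0642), control replicate 2 (0.0725) or mutant replicate 2 (0.239) was left out. Tln1, the other talin, had a log2 fold change of 0.17 (SE 0.08; adjusted p 0.323) and the integrin chain Itgb1 of -0.07 (SE 0.11; adjusted p 0.784).

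**Figure D5:**
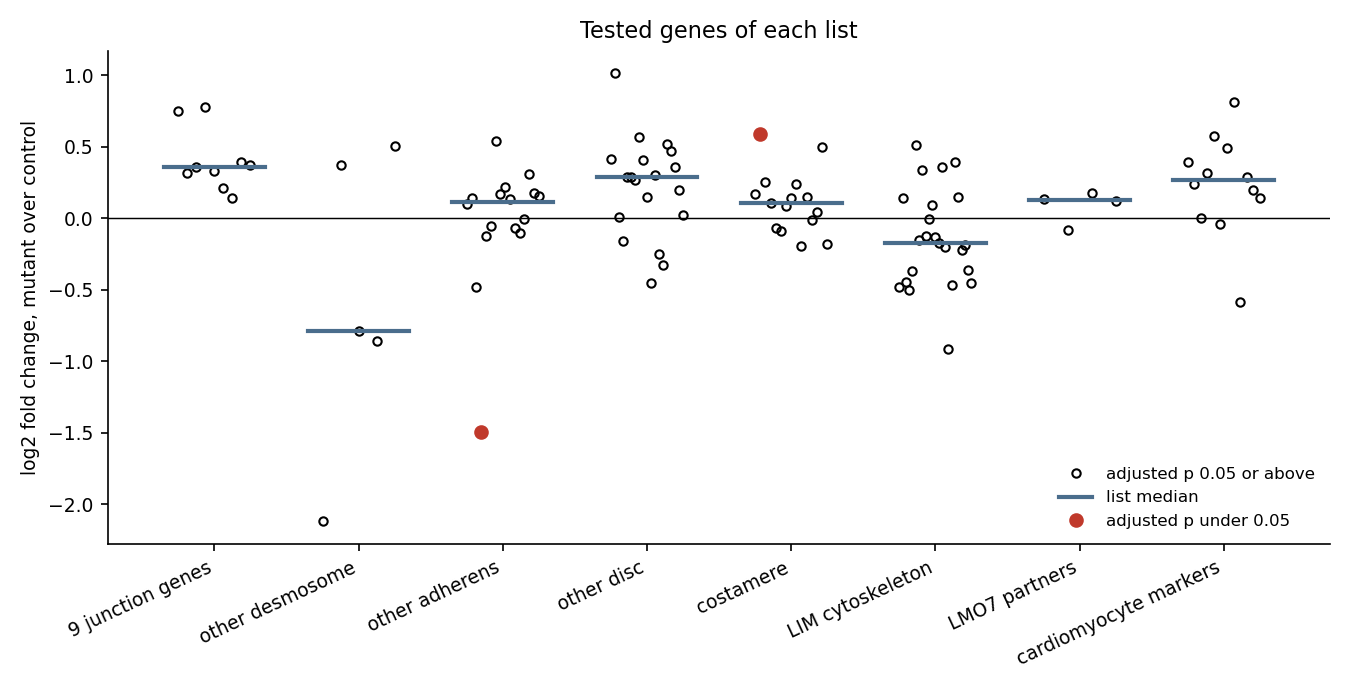
Log2 fold change in the libraries labelled mutant over the controls (vertical axis) of each tested gene of the 9 junction genes, 6 further lists and the cardiomyocyte markers; blue lines are list medians and red points passed an adjusted p of 0.05. Tln2 (0.59) and Ctnna2 (-1.50) are the called genes, and the medians run from -0.79 in the other desmosome genes to 0.36 in the 9 junction genes. The median of -0.79 is over 5 tested genes, of which the 3 negative ones were at most at 11.6 CPM in every library.

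Other LIM-domain proteins of the cytoskeleton, 23 in all, were tested with none called, where 1.36% of all genes were called. Of these 16 had a negative log2 fold change, opposite in sign to that of Lmo7, and the median was -0.17. The other 7 were positive, against 48.6% of all genes. Limch1, the closest relative of Lmo7, was at 25.2 and 20.2 CPM in the libraries labelled mutant, against 41.0, 25.9, 29.0, 28.4 and 33.8 CPM in control replicates 1 to 5. Both were below every control, a position held by 10.4% of all genes, and the log2 fold change was -0.48 (SE 0.17; adjusted p 0.192, edgeR quasi-likelihood). The 2 with the highest CPM in the list, not set per length, were Csrp3, the muscle LIM protein, with a difference on the log2 scale of -0.45 (SE 0.11; adjusted p 0.0831), and Ldb3, of the Z-line, with 0.34 (SE 0.11; adjusted p 0.147), both by the edgeR quasi-likelihood test. Among the 4 described partners of LMO7 the log2 fold changes were -0.08 (SE 0.08) for Emd, 0.13 (SE 0.08) for Mllt4, which encodes afadin, 0.18 (SE 0.09) for Actn1 and 0.12 (SE 0.08) for Actn4, and none was called (edgeR quasi-likelihood adjusted p of 0.333 for Actn1, 0.398 for Mllt4 and above these for the other two).

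The 2 annotated genes nearest to Lmo7 on each side have no row among the genes analysed here. The nearest protein-coding genes that do were picked after the values were seen. Uchl3, 33803 bases before Lmo7, was at 34.0 ± 5.58 CPM in the libraries labelled mutant (SD, n = 2) and 34.1 ± 4.24 CPM in the controls (SD, n = 5). Commd6, 89457 bases before it, was at 18.7 and 19.8 CPM in the libraries labelled mutant and at 19.4 to 23.0 CPM in the controls. Kctd12, 1041873 bases after it, was at 25.2 and 28.1 CPM in the libraries labelled mutant and at 31.9 to 48.6 CPM in the controls. The groups overlapped for Uchl3 and Commd6 and not for Kctd12. Their adjusted p were 0.987, 0.556 and 0.0876 by the edgeR quasi-likelihood test.

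The genes whose levels ran most like Lmo7 over the 7 libraries, among 9884 other genes with a mean of at least 10 CPM, were Mtus2, Cobll1, Mybpc3, Crat and Pdp1, with Pearson correlations of log2 CPM of 0.994 to 0.981. The 7 points share the groups and the scaling, so these values are a description. Mtus2 was at 241 and 257 CPM in the libraries labelled mutant and 143.9 to 175.5 CPM in the controls. Mybpc3, cardiac myosin-binding protein C, was at 3964 and 4222 CPM in the libraries labelled mutant and 2762 to 3257 CPM in the controls. Of the 9 junction genes Pkp2 ran most like Lmo7, at 0.955, and Cdh2 least, at 0.413, while Limch1 stood at -0.767.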

How the data were processed

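Poly(A) RNA was sequenced from 2 left ventricles labelled mutant and 5 controls, single-end, with a TruSeq RNA kit of a kind that does not mark strand, per the labels' protocols. One deposited table gives raw counts for each gene symbol. The submitters' processing notes name mm10, TopHat2 2.1.1, featureCounts, edgeR 3.16.5, limma 3.30.13 and R 3.3.2; what each did, the annotation and the strand setting are not given there. The other gives the authors' log fold change, p-value and false discovery rate per significant gene, per the file headers, which name no base. The authors' values were taken as log2 from a median distance of 0.00542 to those computed here.

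These deposited counts were tested with edgeR 4.0.16 under R 4.3.3, with DESeq2 1.42.0 and limma 3.58.1 as alternatives. Of 23337 genes 14691 passed filterByExpr with a minimum count of 10 and a total of 15, and were scaled by TMM factors and tested with the robust quasi-likelihood test, with genotype as the only term and Benjamini-Hochberg adjustment over all genes tested at 0.05. Each SE is the fold change divided by the root of its F statistic. Log2 CPM used a prior count of 2. No library was a copy: within groups, pairs differed by 10.6 to 33.7 times what sampling alone gives. Exon lengths came from the basic set of GENCODE M21, start windows from RefSeq GRCm38.p6. The members and lists were chosen with earlier results of these data known. Named genes were the 10 members, the called and the 2 genes of highest mean CPM of each further list, Limch1, the LMO7 partners, the neighbours of Lmo7 and the 5 genes most like it.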

Additional observations from a re-analysis of the deposited data

Results flagged for a closer look

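Pkp2 in control replicate 4 was at 269.8 CPM, apart from the other controls at 227 to 239 CPM, and Ctnna1 in control replicate 5 was at 546.3 CPM, apart from the others at 473 to 490.3 CPM. Both passed Dixon's test among the 5 control libraries, of 27 genes examined, and chance passes about 1 group in 20. Without control replicate 4 the log2 fold change of Pkp2 was 0.37, and without control replicate 5 that of Ctnna1 was 0.19. In each gene the high control reduced the difference between the groups.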

How the results depend on the processing

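The log2 fold change of Lmo7 lay between 0.71 and 1.04 under 19 alternatives, and 18 kept it within the spread between replicates of its value of 0.95. Scaled to the 12 cardiomyocyte markers, chosen after seeing the data, it was 0.71, with the median of all genes at -0.255 by the construction of that scaling. The fold change of Cdh2 turned negative without mutant replicate 2 (-0.15), without control replicate 5 and mutant replicate 2 together (-0.043) and scaled to those markers (-0.048), and that of Ctnna1 turned negative in the last (-0.10). With 1 library left out that of Cdh2 ran up to 0.50, without mutant replicate 1. Junction genes called higher were 0 in the edgeR quasi-likelihood fit, 5 with DESeq2, 4 with the edgeR likelihood ratio test, also added after seeing the data, and 0 to 2 with 1 library left out. None was called lower under any of these alternatives.

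Among all genes tested, 68 were called higher and 132 lower. With no filter on low counts 120 were called higher, with DESeq2 349 higher and 434 lower, with limma-voom 65 lower, with Xist as a covariate 19 and 41, in libraries with Xist only 17 and 49, without control replicate 5 and mutant replicate 2 together 15 and 37, with the likelihood ratio test 326 and 463, and scaled to the markers 39 and 1390. With 1 library left out, 3 to 151 were called higher and 9 to 182 lower, fewest without mutant replicate 2. Of the 6 further lists, with 1 called higher and 1 lower, the higher count was 2 with no filter, 9 with DESeq2, 9 with the likelihood ratio test, 0 in both Xist settings, without the 2 libraries together and scaled to the markers, and 0 to 5 with 1 left out. The lower count was 4 with DESeq2, 5 with the likelihood ratio test, 10 scaled to the markers, 0 with limma-voom, with no robust estimation, in both Xist settings and without the 2 libraries together, and 0 to 1 with 1 left out. The cause of these changes was not tested.

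With the replicate number as a block, 299 genes (2.04%) were called higher and 512 lower, among them 3 junction genes higher, Dsp, Dsg2 and Dsc2, and 8 higher and 4 lower of the further lists. The labels do not say that the numbers pair the samples, and only 2 numbers are shared, so this block was not used elsewhere. Deviations of same-numbered samples had correlations of 0.0775 and 0.0117. With only 2 libraries labelled mutant, their deviations from the group mean mirror each other by construction. The correlations are therefore not separate checks and cannot show whether the numbers pair the samples.

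Only 2 libraries are labelled mutant, and the fold changes of Dsp, Dsg2, Dsc2 and Cdh2 were at 0.37, 0.29, 0.07 and -0.15 without mutant replicate 2.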
